A study of Bos taurus with 12 samples.

Results

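The calpain system of skeletal muscle was examined here through 4 genes: CAPN1, CAPN2, CAPN3 and CAST, which encodes calpastatin. The members were fixed by gene symbol, and each is represented by 1 probe, so they are 4 of the 21475 probes of the array. All 4 probes were well above background on all 12 arrays. Messenger RNA was measured in biceps brachii of 12 male cattle aged 18 to 20 months, with 1 array per bull of a 1-colour Agilent bovine design. The 4 control bulls were untreated. The 4 bulls of the dexamethasone group ate feed with that synthetic glucocorticoid for 42 days, at a dose of 0.75 mg per head. The 4 bulls of the combination group had 21 days of dexamethasone, at 0.66 mg per head, together with clenbuterol, a beta-adrenergic agonist. Clenbuterol was given for 28 days, with a dose per head of 2 mg during week 1, 4 mg during week 2 and 6 mg during weeks 3 and 4. The treated groups thus differed in clenbuterol and also in how much dexamethasone was given and for how long. The 12 samples were those of highest RNA quality among 24 treated and untreated animals, and the sources used here give neither the breed nor the time from last dose to slaughter.

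Calpains are cysteine proteases of the cytosol that are switched on by calcium. Calpain 1 (mu-calpain) and calpain 2 (m-calpain), whose catalytic subunits are encoded by CAPN1 and CAPN2, share the small regulatory subunit encoded by CAPNS1 and cut myofibrillar and cytoskeletal proteins. CAPN3 encodes a calpain found mainly in skeletal muscle, which binds titin in the sarcomere, and calpastatin is the specific inhibitor of calpains 1 and 2. The balance of calpain 1 and calpastatin is known for its bearing on the tenderness of beef after slaughter, and beta-agonists are known to raise calpastatin in cattle muscle.

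Levels are given as log2 of the processed signal relative to the 75th percentile of the same array, so that a step of 1 is a 2-fold difference in signal. Each level belongs to its own probe, and levels of different genes were not ranked against each other. Before the scaling by the percentile, the processed signals of the CAPN1 probe ran from 1130 to 3390 units over the arrays. Those of CAPN2 ran from 5220 to 14400, those of CAPN3 from 614 to 2750 and those of CAST from 3790 to 12800. These probes had 0 saturated spots. Each probe had 2 spots per array, which differed by at most 0.193 on the log2 scale (medians 0.045 for CAST to 0.11 for CAPN3). The range over the 4 bulls of every group exceeded this for all members. The CAST probe was designed on a record labelled transcript variant 2, whereas RefSeq (assembly ARS-UCD2.0) lists 16 CAST transcripts, 4 of them curated. Which of these the probe detects was not determined, since no probe sequence was used here.

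No member passed the test in any of the 3 comparisons. Limma called 0 of the 4 in dexamethasone against control, where 0.619% of all 14703 probes tested were called at an adjusted p under 0.05. It called 0 of 4 in the combination against control (0.0272% of all probes) and 0 of 4 in the combination against dexamethasone (0.0136%). At an unadjusted p under 0.05 the counts were 0, 1 and 0 of 4, beside 12.3%, 11.9% and 10.9% of all probes. The groups' values overlapped for every member in every comparison. Most probes did the same, since 6.33%, 8.06% and 5.26% of all probes had no overlap. The estimates lay above 0 for 4 of 4 members in both comparisons with control, which share the control bulls, beside 54.4% and 53.9% of all probes. Between the treated groups they lay above 0 for 1 of 4, beside 52.7% of all probes. The median log2 change of the members was 0.28 after dexamethasone and 0.29 after the combination, against 0.03 for all probes in both. Against dexamethasone alone, the median for the combination was -0.09, against 0.02 for all probes.

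CAPN1, the catalytic subunit of calpain 1, was the member with the largest estimate in the combination group. Its levels in the control bulls were 0.56, 0.88, 1.34 and 0.99. In the dexamethasone bulls they were 0.94, 1.44, 1.43 and 0.71, and in the combination bulls 1.44, 1.17, 1.65 and 1.54. Control replicates 1, 2 and 4 lay below all 4 combination bulls, and control replicate 3 lay inside their range. The group means were 0.94 ± 0.32 (SD, n = 4), 1.13 ± 0.37 and 1.45 ± 0.21, in the order control, dexamethasone, combination, and neither step between neighbours in that order passed the test. The combination was 1.42-fold above control (log2 change 0.51 ± 0.22 SE, unadjusted 95% interval 0.03 to 0.98), and this did not pass (limma adjusted p = 0.39). Dexamethasone alone gave 0.19 ± 0.22 (interval -0.29 to 0.66, limma adjusted p = 0.787), and the combination against dexamethasone 0.32 ± 0.22 (interval -0.15 to 0.80, limma adjusted p = 0.642).

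CAPN2, the catalytic subunit of calpain 2, was the steadiest member among untreated bulls. Its control levels were 2.99, 3.0, 3.09 and 2.89, a spread of 0.08 (SD) around 2.99. The dexamethasone bulls had 3.39, 3.44, 2.95 and 2.87, and the combination bulls 2.82, 3.47, 2.92 and 3.30. In each treated group 2 bulls lay above all controls and the other 2 lay within or just below the control range. The group means of 3.16 ± 0.29 and 3.13 ± 0.31 (SD, n = 4) differed from control by log2 changes of 0.17 ± 0.19 SE (interval -0.24 to 0.59, limma adjusted p = 0.777) and 0.14 ± 0.19 (interval -0.28 to 0.55, limma adjusted p = 0.812). The treated groups differed from each other by -0.04 ± 0.19 (interval -0.45 to 0.38, limma adjusted p = 0.968), a value whose sign changed with the scaling (0.02 with quantile normalization).

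CAPN3, the titin-binding muscle calpain, varied most within groups, with an SD of 0.46 in the fit against a median of 0.35 over all probes. Its control levels were 0.55, -0.16, 0.31 and 0.95. The dexamethasone bulls had 0.55, 0.83, 0.95 and 1.58, and the combination bulls 0.40, 1.05, 1.39 and 0.44. Control replicate 2 was the lowest bull and dexamethasone replicate 4 the highest, and the other values of the 3 groups were interleaved. The means were 0.41 ± 0.46 (SD, n = 4) in controls, 0.98 ± 0.43 after dexamethasone and 0.82 ± 0.48 after the combination. Dexamethasone gave the largest estimate of any member, 1.48-fold above control (log2 change 0.56 ± 0.30 SE, interval -0.09 to 1.22), which did not pass (limma adjusted p = 0.485). The combination gave 0.41 ± 0.30 against control (interval -0.25 to 1.07, limma adjusted p = 0.616) and -0.15 ± 0.30 against dexamethasone (interval -0.81 to 0.50, limma adjusted p = 0.899).

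CAST, the calpain inhibitor, had control levels of 2.59, 2.49, 3.24 and 2.80. The dexamethasone bulls had 3.44, 3.10, 3.04 and 3.02, and the combination bulls 2.72, 2.92, 2.97 and 3.19. All 4 dexamethasone bulls lay above 3 of the controls, and control replicate 3 lay inside their range. The means were 2.78 ± 0.33 (SD, n = 4), 3.15 ± 0.20 and 2.95 ± 0.20 in the order control, dexamethasone, combination, so that CAST was highest with dexamethasone alone. The change after dexamethasone was 1.29-fold (log2 change 0.37 ± 0.19 SE, interval -0.04 to 0.78, limma adjusted p = 0.463), and after the combination 1.12-fold (0.17 ± 0.19, interval -0.24 to 0.58, limma adjusted p = 0.756). The interval after the combination reached from 0.844-fold to 1.5-fold. The combination against dexamethasone gave -0.20 ± 0.19 (interval -0.61 to 0.21, limma adjusted p = 0.757).

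**Figure D1:**
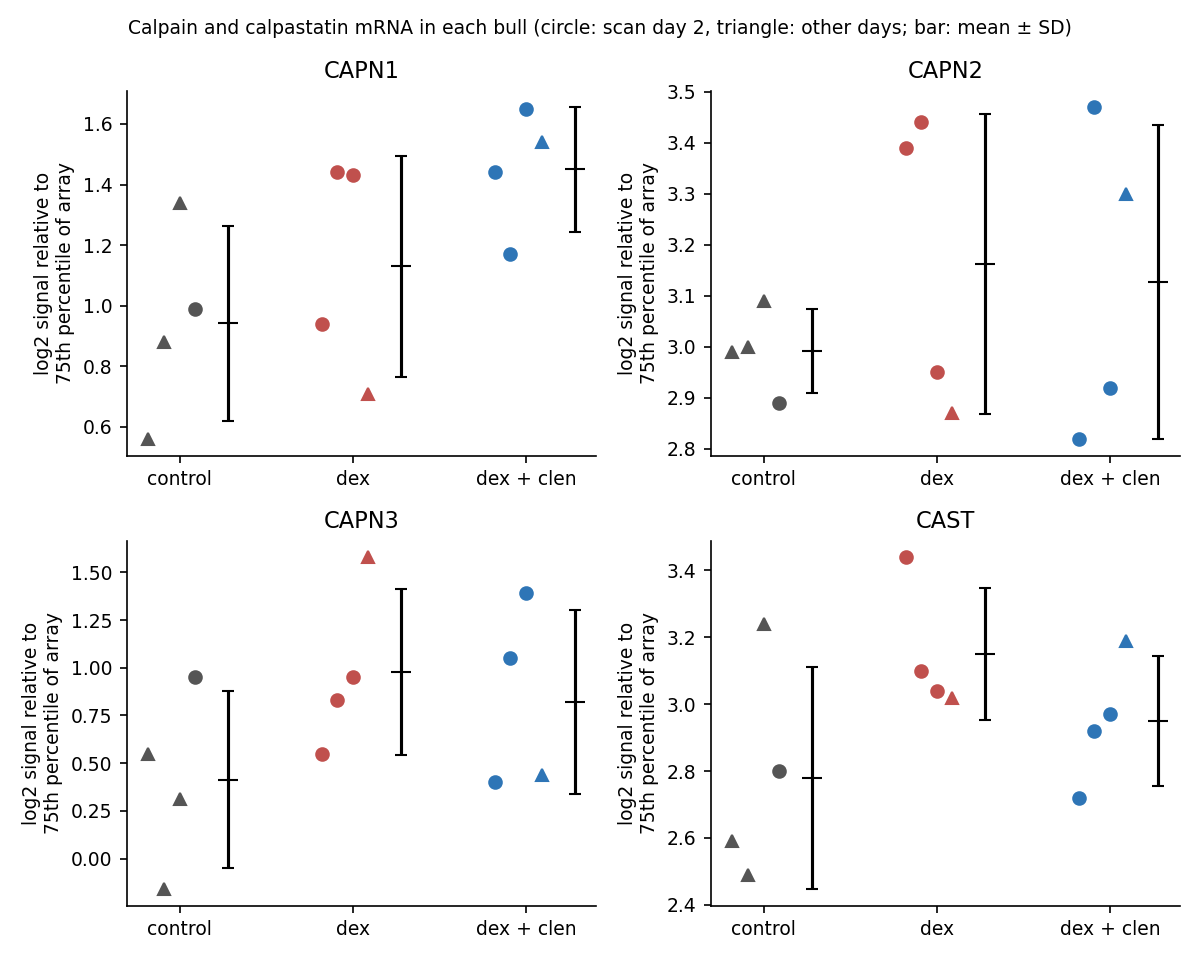
Log2 signal of CAPN1, CAPN2, CAPN3 and CAST relative to the 75th percentile of the array, 1 point per bull, for 4 control, 4 dexamethasone (dex) and 4 combination (dex + clen) bulls. Circles are arrays of scan day 2, triangles those of other days, and bars are the mean ± SD. In every panel the groups overlap, and control bull 3 (1.34 for CAPN1, 3.24 for CAST) lies within the range of the treated bulls for these 2 genes.

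**Figure D2:**
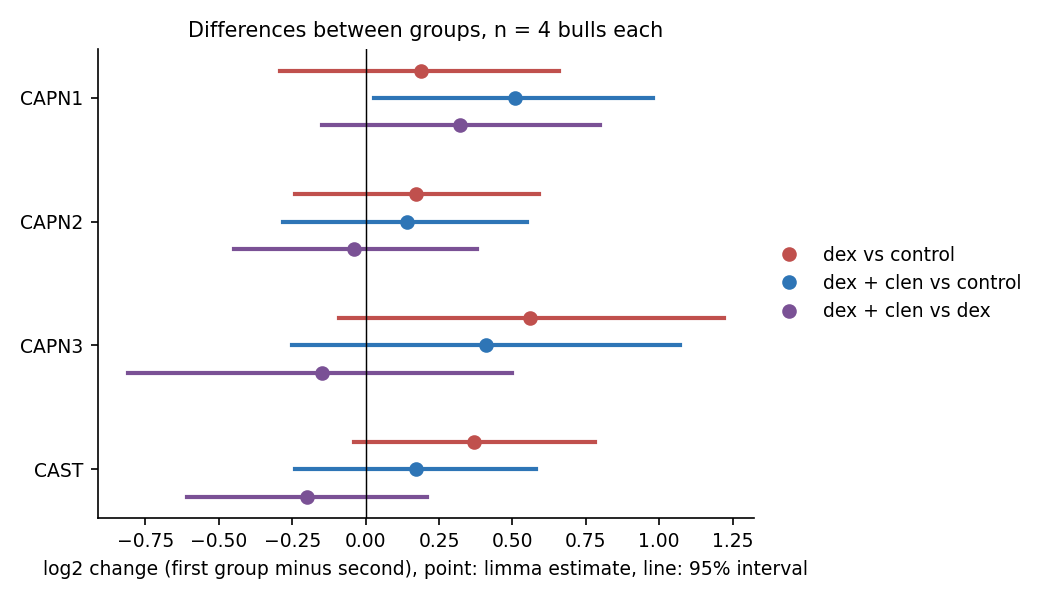
Limma log2 changes of the 4 members in the 3 comparisons (horizontal axis), with unadjusted 95% intervals as lines. The interval of CAPN1 in the combination against control (0.03 to 0.98) leaves out 0, and the other 11 include it.

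Array handling was unevenly spread over the groups. The file headers place 7 arrays on scan day 2 (1 control, 3 dexamethasone and 3 combination), and the other 5 on days 1, 3 and 4 (3 control, 1 dexamethasone and 1 combination). Each of those 3 days holds 1 group, so on them group and day cannot be told apart, and within scan day 2 the control is 1 bull. The combination arrays lie on slides 4 and 5, which hold no other group, so for the combination slide and group cannot be told apart. The mean signal of negative control spots was 98.6 to 123.2 units on scan day 2 and 59.5 to 73.1 on the other days. Between 53.2% and 68.7% of spots per array were well above background. Within scan day 2, the dexamethasone change was 0.27 for CAPN1, 0.37 for CAPN2, -0.17 for CAPN3 and 0.39 for CAST. On the other days these values were -0.22, -0.15, 1.34 and 0.25 in the same order. The combination change against control was 0.43 for CAPN1, 0.18 for CAPN2, 0.0004 for CAPN3 and 0.07 for CAST within scan day 2, and 0.61, 0.27, 0.20 and 0.42 on the other days. For the combination against dexamethasone, scan day 2 holds 3 bulls of each group, on slide 2 for dexamethasone and slide 4 for the combination, and the changes there were 0.15 for CAPN1, -0.19 for CAPN2, 0.17 for CAPN3 and -0.32 for CAST. The other days, with 1 bull each, gave 0.83, 0.43, -1.14 and 0.17. The CAPN3 value on the other days rests on dexamethasone replicate 4, the highest CAPN3 array.

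Because calpastatin inhibits calpains 1 and 2, the signals of CAPN1 and CAPN2 were also set against that of CAST in the same bull. CAPN3, which is not among the calpains named above as inhibited by calpastatin, was set against CAST in the same way. Such a ratio of 2 probes has no absolute meaning, and only its differences between bulls are described, without a test. For CAPN1 to CAST the log2 ratio was -2.03, -1.61, -1.90 and -1.81 in controls. It was -2.51, -1.66, -1.61 and -2.32 after dexamethasone and -1.28, -1.75, -1.32 and -1.66 after the combination. Combination replicates 1 and 3 lay above all controls, and dexamethasone replicates 1 and 4 below all of them. The means were -1.84 ± 0.18 (SD, n = 4), -2.02 ± 0.45 and -1.50 ± 0.24 in the order control, dexamethasone, combination.

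For CAPN2 to CAST the means were 0.21 ± 0.30 (SD, n = 4) in controls, 0.01 ± 0.22 after dexamethasone and 0.18 ± 0.26 after the combination. For CAPN3 to CAST they were -2.37 ± 0.50, -2.17 ± 0.59 and -2.13 ± 0.52. The differences between these means were smaller than the SD within the groups. The CAPN3 to CAST difference after dexamethasone was -0.56 within scan day 2 and 1.1 on the other days.

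**Figure D3:**
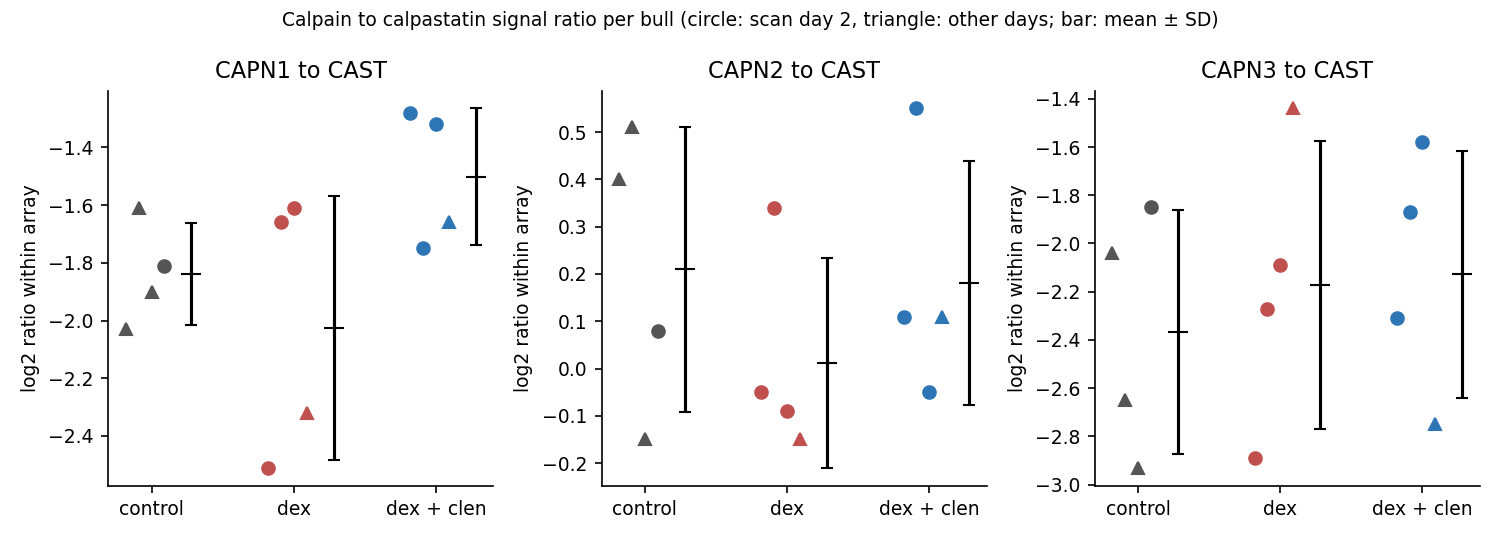
Log2 ratio of the CAPN1, CAPN2 and CAPN3 signal to the CAST signal of the same array, 1 point per bull (circle: scan day 2, triangle: other days), with the mean ± SD per group. For CAPN1 the 4 combination bulls sit between -1.75 and -1.28 and the 4 controls between -2.03 and -1.61. The 4 dexamethasone bulls sit between -2.51 and -1.61. The groups overlap in every panel.

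Levels of the members were compared across the 12 bulls together with CAPNS1, the small subunit that calpain 1 and calpain 2 share, in 10 pairs. CAPN1 and CAPNS1 had the highest correlation (Pearson r = 0.74, permutation p = 0.00663, adjusted over the 10 pairs 0.0663; Spearman rho = 0.73, permutation p = 0.0082, adjusted 0.082). It did not pass after adjustment. Without the 2 bulls farthest from the median of CAPN1 the Pearson r was 0.60, within the 7 arrays of scan day 2 it was 0.46, and with the group means removed it was 0.54. CAPN2 and CAST came next (r = 0.52, permutation p = 0.0872, adjusted 0.436; rho = 0.43, permutation p = 0.162, adjusted 0.742), with r = 0.66 without the 2 farthest bulls, 0.61 within scan day 2 and 0.44 with the group means removed. The remaining 8 pairs had r from -0.11 to 0.38 with adjusted permutation p of at least 0.643. Within scan day 2 their r ran from -0.70 (CAST and CAPNS1, 0.31 over all 12) to 0.37 (CAPN1 and CAPN3, 0.06 over all 12), and that of CAPN1 and CAST was -0.32, against 0.36 over all 12.

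CAPNS1 was itself highest in the combination group. Its levels were 4.42, 4.18, 4.82 and 5.0 in controls, 4.72, 5.06, 5.14 and 4.52 after dexamethasone, and 5.22, 5.42, 5.14 and 5.03 after the combination. All 4 combination bulls lay above all controls, the closest at 5.03 against 5.0, and 8.06% of all probes had no overlap in this comparison. The change against control was 1.51-fold (log2 change 0.60 ± 0.21 SE, n = 4 per group, interval 0.14 to 1.06), which did not pass (limma adjusted p = 0.323), and it was 0.26 within scan day 2. After dexamethasone alone it was 0.25 ± 0.21 (limma adjusted p = 0.696), and -0.03 within scan day 2.

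The genes whose levels followed each member most closely over the 12 arrays were taken from 8973 other genes well above background on every array, as a description. For CAPN1 they were SYNPO2L, an actin-associated protein of striated muscle (r = 0.87), PRMT7, an arginine methyltransferase (r = 0.86), and SIKE1 (r = 0.86). For CAPN2 they were C6orf141 (r = 0.89), TRAM2 (r = 0.86) and KCNK12, a potassium channel subunit (r = 0.82). For CAPN3 they were RAB7A, a GTPase of late endosomes (r = 0.91), OAZ3 (r = 0.90) and MTMR1, a lipid phosphatase (r = 0.88). For CAST they were TSC22D4 (r = 0.92), EIF3E, a translation initiation factor subunit (r = 0.91), and SP110 (r = 0.90). With the group means removed, these correlations were 0.81 to 0.93. The points share arrays and scan days, and such values are the highest of many.

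Of the other members of the family, 9 further calpain genes had a probe, and 6 of them were bright enough to test: CAPN5, CAPN6, CAPN7, CAPN10, CAPN12 and CAPN15. Probes of CAPN11, CAPN13 and CAPN14 were not well above background on any array. None of the 6 was called in any comparison. The probes of CAPN6 and CAPN10 and the brighter CAPN5 probe were named only by the human match in the probe description. CAPN6, a family member without the catalytic cysteine, had levels of -0.30, -0.59, -0.56 and -0.37 in controls, -1.07, -1.48, -1.21 and -1.44 after dexamethasone, and -0.56, 0.03, -0.75 and -0.61 after the combination. The 4 dexamethasone bulls lay below all 8 others. Of all probes, 6.33% had no overlap between dexamethasone and control, and 5.26% between the treated groups. The log2 change was -0.85 ± 0.19 SE against control (n = 4 per group, limma adjusted p = 0.0749), and the combination stood 0.83 ± 0.19 above dexamethasone (limma adjusted p = 0.168) and -0.02 ± 0.19 from control (limma adjusted p = 0.984). None of these passed. The first passed in 3 of 25 alternative fits, at a limma adjusted p of 0.0474 with arrays scaled on detected probes, 0.0414 without dexamethasone replicate 1 and 0.0385 without combination replicate 2. The last of these leaves the estimate at -0.85, since it drops a bull of the group not compared.

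CAPN7 stood at 1.73 ± 0.31 (SD, n = 4) in controls, 1.19 ± 0.32 after dexamethasone and 1.22 ± 0.17 after the combination. Its change in the combination was -0.51 ± 0.20 SE (limma adjusted p = 0.367, and -0.85 within scan day 2), with no overlap with control, as for 8.06% of all probes. CAPN5, a calpain without the calcium-binding domain of the classical ones, was dim, and its 2 probes differed. The brighter probe, named by human match, gave a log2 change of -1.22 ± 0.36 after dexamethasone (limma adjusted p = 0.172) and 0.64 ± 0.36 for the combination against dexamethasone (limma adjusted p = 0.563). The other, named by gene number, gave 0.12 and 0.10. CAPN15, well above background on 8 arrays, had 0.57 ± 0.28 in the combination against control (limma adjusted p = 0.442; 0.26 within scan day 2).

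Fixed lists of other proteases, inhibitors and calpain substrates held 0 called genes in all 3 comparisons. With the calpains and CAPNS1 they comprised 74 genes on 7 lists, of which 55 were tested by limma. Of these, 9 were at an unadjusted p under 0.05 after dexamethasone, 10 after the combination and 3 between the treated groups, beside the shares of all probes given above. For 9 cathepsins, the proteases of the lysosome, the median log2 change was -0.10 after dexamethasone and 0.17 after the combination. The smallest p values belonged to CTSH (-0.72) and CTSZ (0.31) after dexamethasone, to CTSZ (0.38, and 0.22 within scan day 2) and CTSD (0.27, and 0.16) after the combination, and to CTSK (-0.55) and CTSC (0.52) between the treated groups. For 4 caspases, the proteases of apoptosis, all estimates lay above 0 after dexamethasone (median 0.21), and the median after the combination was 0.05. All 4 lay below 0 between the treated groups, with CASP6 at -0.22.

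For 7 genes of a list of other protease inhibitors and serpins, of which SERPINF1 and SERPINH1 are not known as inhibitors, 6 estimates lay below 0 after dexamethasone (median -0.77) and 5 after the combination (median -0.33). The fibroblast markers described further on had medians of -1.29 and -0.61 in the same comparisons and 0.79 between the treated groups, where the list had 0.43, and their part in these values was not tested. SERPINI1 had log2 changes of -0.77 ± 0.20 SE (n = 4 per group, limma adjusted p = 0.118) and -0.67 ± 0.20 (limma adjusted p = 0.255) against control, without overlap in either, beside 6.33% and 8.06% of all probes. The SERPINI1 probe was dim (mean level -3.36 in controls) and well above background on 11 arrays. That of A2M, also on this list, was so on 5 arrays. SERPINF1, a secreted serpin, had -1.20 ± 0.35 after dexamethasone (limma adjusted p = 0.169), and -1.50 with a limma adjusted p of 0.0382 without dexamethasone replicate 1. It stood 0.92 ± 0.35 higher in the combination than in dexamethasone (limma adjusted p = 0.374). SERPINH1, the collagen chaperone of the endoplasmic reticulum, had 1.0 ± 0.32 in the combination against control (limma adjusted p = 0.276) and 0.57 ± 0.32 against dexamethasone (limma adjusted p = 0.557).

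For 17 myofibrillar and cytoskeletal substrates of calpains, 11 estimates lay above 0 after dexamethasone (median 0.09) and 11 after the combination (median 0.21). The genes of smallest p were LDB3, a protein of the Z-disc (0.41, and 0.0047 within scan day 2), and SPTBN1, a spectrin (-0.40), after dexamethasone. They were the talins TLN1 (0.48, and -0.01 within scan day 2) and TLN2 (0.38, and 0.09 within scan day 2) after the combination, and SPTBN1 (0.58) and TLN2 (0.32) between the treated groups, with limma adjusted p of at least 0.335. For 11 genes linked to CAPN3 in the sarcomere and in membrane repair, the medians were 0.15 and 0.13 against control. CAV3, caveolin of muscle, had 0.71 ± 0.21 SE after dexamethasone (n = 4 per group, limma adjusted p = 0.176). DYSF, dysferlin of the muscle membrane, had 0.46 ± 0.16 after the combination (limma adjusted p = 0.323) without overlap with control, as for 8.06% of all probes. ANXA6 had 0.51 ± 0.20 after the combination (limma adjusted p = 0.367). Within scan day 2 these were 0.22 for DYSF and 0.02 for ANXA6. Between the treated groups DYSF had 0.32 and SGCB -0.36.

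**Figure D4:**
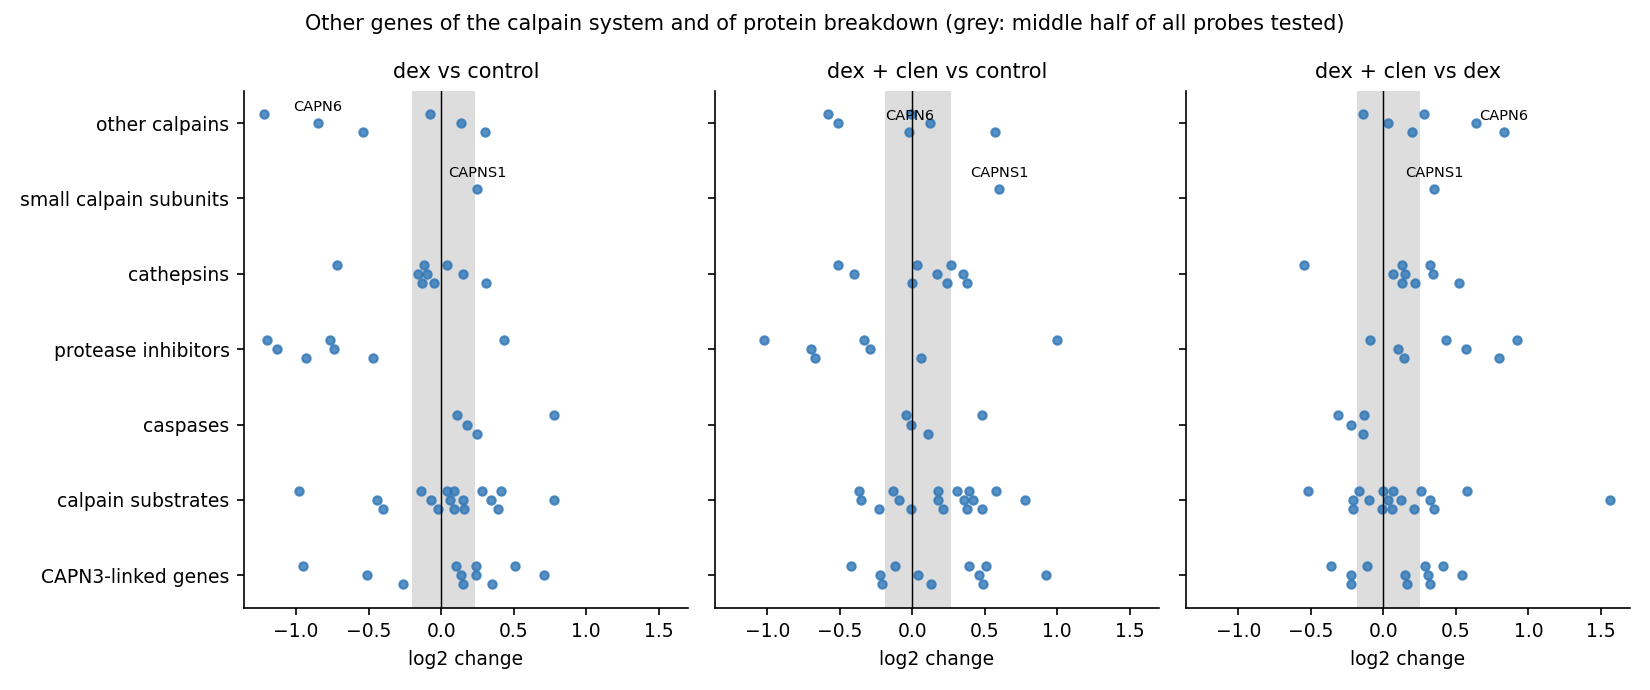
Log2 changes of the genes of the 7 fixed lists, 1 point per tested gene, in the 3 comparisons, with a grey band for the range between the quartiles of all 14703 probes. None of the points was called. CAPN6 sits at -0.85 after dexamethasone, -0.02 after the combination and 0.83 between the treated groups.

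Of the 9 fixed markers of muscle fibres, by which the tissue label was checked, 8 were tested, and all 8 were well above background on every array, with MYLPF not analysed here. CAPN1, CAPN2 and CAST are active in many cell types, and in whole muscle fewer cells of a type and less RNA per cell cannot be told apart. The summed signal of the fibre markers, in units of the 75th percentile of the array, was 2100 to 2560 in controls, 1820 to 2800 after dexamethasone and 1970 to 2710 after the combination. That of 8 fibroblast markers was 48.4 to 61.6, 13.1 to 35.3 and 28.3 to 56.3 in the same order. All 8 lay below 0 after dexamethasone, with 1 called lower, as were 0.585% of all probes, and 7 of 8 after the combination, with 0 called. That of 7 leukocyte markers was 1.52 to 2.40, 0.33 to 3.33 and 0.709 to 1.29, with 6 of 7 below 0 after dexamethasone and 1 called lower, and 6 of 7 below 0 after the combination. Only 1 of these 7 was well above background on every array. Of 7 endothelial markers, 5 lay above 0 after dexamethasone (median 0.30) and 6 after the combination (median 0.19), and the summed signal was 5.38 to 8.26 in controls, 7.23 to 11.3 and 7.40 to 9.37. Of 4 smooth muscle markers, 3 lay above 0 in both (medians 0.31 and 0.58), with sums of 10.9 to 15.3, 14.8 to 20.5 and 11.4 to 41.0. The 3 adipocyte markers tested had medians of 0.14 and 0.45, and the 2 red blood cell markers -0.37 and 0.42, with 0 called. Of these, 0 adipocyte markers and 1 red blood cell marker were well above background on every array. The part of these cells in the members' values was not tested.

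**Figure D5:**
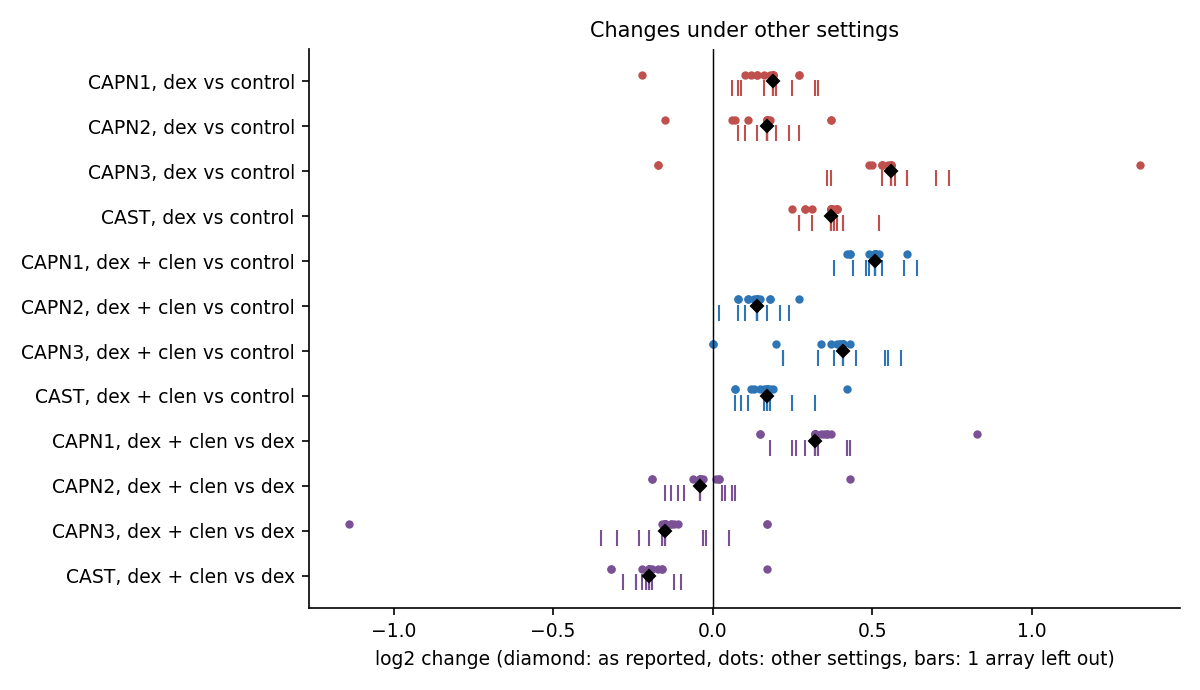
Log2 change of each member in each comparison (black diamond: as reported) under 13 other settings (dots) and with each of the 12 arrays left out (bars). The widest ranges belong to CAPN3, from -0.17 to 1.34 for dexamethasone against control and from -1.14 to 0.17 for the combination against dexamethasone, all from fits by scan day.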

How the data were processed

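The deposited scanner files hold spot intensity on a linear scale, detrended spatially and multiplicatively by Agilent Feature Extraction 9.5.1.1, per the file headers. The value table deposited by the authors also holds intensity, ranked as the scanner signal is (Spearman correlation of at least 0.999996 per array), with a shared maximum of 689500. Its array medians run from 137.25 to 181.167, and how it was made is not stated (not given in the sources used here). The processed signal was put on a log2 scale, and the 75th percentile over the 42990 spots other than controls was subtracted per array. Outlier spots were left out, and each probe's spots were averaged.

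Probes were kept if well above background on 4 or more of the 12 arrays, and these 14703 were fitted in limma 3.58.1 (R 4.3.3; lmFit with 3 group means, then eBayes), with Benjamini-Hochberg adjustment over all of them per comparison and two-sided p-values. A probe was called at an adjusted p under 0.05. The fit was tested on simulated data. Correlations between members used 100000 permutations. The limma p-values set group differences against the spread between arrays of a group, which holds differences of bull, slide and scan day. The permutations were made over all 12 arrays without regard to group or scan day. The precision of all these p-values is limited by the number of arrays.

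Gene names follow RefSeq gene numbers, accessions and symbols (assembly ARS-UCD2.0, for names only), and then the human match in the probe description: 10098 probes were matched by gene number, 3413 by accession, 384 by symbol and 3560 by human match, and 4020 kept the name in the file. A probe described as similar to calpain 2 carries the gene number of CAPN14 and was counted as CAPN14. A probe described as calpain small subunit 1 carries that of ALKBH6 and was not used. List genes are represented by their brightest tested probe.

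The members and lists were chosen with earlier results of these data known. The named genes are all members, CAPNS1, called list genes, up to 2 list genes of smallest unadjusted p per list and comparison, and the 3 genes most alike each member. Some genes that the rule names are not reported here. Alternatives covered background correction, scaling, the authors' table, filters, 1 probe per gene, scan day, slide, the samples fitted and single arrays. Their use on the lists and on named list genes was chosen after seeing the data.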

Additional observations from a re-analysis of the deposited data

Results flagged for a closer look

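Among 87 sets of 4 bulls checked for 1 bull far from the others (the 4 members, the 3 ratios to CAST and the named genes of the lists, in each group), 2 had such a bull, and chance gives about 1 in 20. None concerned CAPN1, CAPN2, CAPN3, CAST or a ratio. CAPN5 was lowest in combination replicate 2, at -4.42 against -3.34 to -3.28 in the other 3 bulls. SERPINH1 reached 2.81 in dexamethasone replicate 1, against 1.78 to 1.92 in the other 3.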

How the results depend on the processing

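No member passed in any of 300 refits (12 member results under 25 alternatives each, smallest limma adjusted p 0.218), and 284 kept the direction reported. Many of these directions were fixed in advance. Other filters, 1 probe per gene, fitting only the 2 groups compared and leaving out an array of the group not compared cannot change an estimate. The fixed scan day block gives the same estimates as the fit within scan day 2. The 16 refits with the other direction were as follows. For dexamethasone against control, CAPN3 was -0.17 with a fixed scan day block and within scan day 2, and on the other scan days CAPN1 was -0.22 and CAPN2 -0.15. For the combination against dexamethasone, CAPN2 was 0.02 with quantile normalization, 0.01 with the percentile over detected probes, 0.02 with the authors' table and 0.43 on the other scan days, CAPN3 was 0.17 with a fixed scan day block and within scan day 2, and CAST was 0.17 on the other scan days. Leaving out 1 array gave -0.15 to 0.07 for CAPN2 and -0.35 to 0.05 for CAPN3 in that comparison, and no other member changed sign. The cause was not tested.

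Over all probes, 91, 4 and 2 were called in dexamethasone against control, the combination against control and the combination against dexamethasone. These counts were 27, 0 and 0 without a filter, 56, 0 and 1 with probes above background on all arrays, 15, 0 and 0 with the 2-level scan day block, 2, 2 and 0 with a fixed scan day block, 4, 0 and 0 within scan day 2, and 0, 0 and 0 on the other scan days. With normexp they were 89, 8 and 1, with quantile normalization 67, 3 and 0, with slide as a random block (from the file headers, which differ from the label code for dexamethasone replicate 4) 61, 0 and 0, and with only the 2 groups compared 67, 2 and 0. Leaving out 1 array gave 25 to 276, 0 to 13 and 0 to 73, the highest in each case without dexamethasone replicate 1 and the lowest of the first without control replicate 1. List genes called in dexamethasone against control were 0 to 2 with 1 array left out and 1, CAPN6, with the percentile over detected probes.

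The CAPN3 to CAST difference after dexamethasone, 0.19 over all bulls, was -0.56 within scan day 2 and 1.1 on the other scan days, and between the treated groups, 0.05 over all, it was -1.31 on the other scan days. Of the named genes of the lists, 5 of 820 refits changed sign: CAPNS1 (-0.03 after dexamethasone with a fixed scan day block and within scan day 2), CTSZ (-0.18 after dexamethasone on the other scan days), and TLN1 (-0.01 after the combination with a fixed scan day block and within scan day 2). Here too many of the refits could not change the estimate, and the fixed scan day block repeats the values of scan day 2. Within scan day 2, 10 of 21 named changes against control were nearer 0 by over 1.5 times or changed sign, and 1 was farther from 0 by over 1.5 times. The rest, after dexamethasone, were CAPN6 -0.88, CAPN5 -1.04, CTSH -0.53, CTSZ 0.36, SERPINI1 -0.91, SERPINF1 -1.04, SPTBN1 -0.35 and CAV3 0.74. After the combination they were SERPINI1 -0.69 and SERPINH1 1.27. Fits by scan day have 1 bull in some groups, assumed to vary like the rest, and the number of arrays limits precision throughout. No paired analysis was made, since the labels give no pairing of bulls between the groups.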
